A study of Mus musculus with 12 samples.

Results

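Transcript usage, the share of a gene's mRNA that each of its transcripts makes up, was compared between whole brains of PAE mice, exposed to alcohol before birth, and SAC mice, the saccharin controls. Genes were chosen by measured level alone: a gene entered when at least 2 of its transcripts each had a mean of at least 1 FPKM (fragments scaled by transcript length and sequencing depth) over the 12 brains. This rule took 4894 of the 13749 genes in the deposited transcript table. At its edge the second transcript of Pot1a, at 1.00122 FPKM, and of Cryab, at 1.0013 FPKM, lay just inside, while those of Smim11, at 0.998774 FPKM, and Fgfr3, at 0.998442 FPKM, lay just outside. A gene whose transcripts were all listed at 0 in a brain has no share there, so 8 genes (25 gene and brain pairs) were set aside, which left 4886 genes with 13602 transcripts out of 29097 in the table.

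Poly-A mRNA was sequenced from 12 whole brains of C57BL/6 mice at embryonic day 18. Dams of the 6 PAE mice drank ethanol in saccharin-sweetened water during pregnancy, and dams of the 6 SAC mice drank saccharin-sweetened water alone. Each group held 3 females (ES19-4, ES23-7 and ES27-4 for PAE, SAC12-5, SAC26-5 and SAC26-7 for SAC) and 3 males (ES19-8, ES23-4 and ES27-1 for PAE, SAC12-6, SAC12-7 and SAC26-8 for SAC). All 12 mice were offspring of dams that drank saccharin, so the groups differ in ethanol. Prefixes of the names are shared by brains of 1 group only, and because the sources used here do not say whether they mark litters, each brain was taken as 1 replicate. The p-values therefore measure only the spread between these brains.

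A gene can yield several mRNAs by starting at different promoters, by joining or skipping alternative exons, and by ending at different polyadenylation sites. Some of these choices change the protein, and others change only the untranslated ends. The developing brain is known for a large program of alternative splicing, run by RNA-binding proteins of the Ptbp, Nova, Rbfox, Celf and Hnrnp families, which act on genes of the synapse, the cytoskeleton and the cell membrane.

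Most genes divided their mRNA unevenly. The highest transcript of a gene held a median share of 64.2%, with 483 genes at 90% or more and 1093 genes under 50%. Of the genes, 2796 had 2 tested transcripts, 1175 had 3 and 915 had 4 or more, with 18 the largest number. When matched to the GENCODE M21 annotation, 4612 genes (94.4%) had every tested transcript identified. In 969 of these (21.0%) the 2 highest transcripts coded for the same protein sequence. Their starts lay more than 50 bases apart in 65.6% of genes, their ends in 62.8%, and in 83.2% they differed in at least 1 intron within the span that they shared. Of 13154 matched transcripts, 2358 (17.9%) are marked in the annotation as incomplete at an end.

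Usage varied widely between brains of 1 group. The median SD of a share over brains was 6.34 percentage points in PAE and 5.86 in SAC. It was 12.9 points for transcripts of genes under 10 FPKM in total, 7.00 points between 10 and 30 FPKM, and 3.06 points at 30 FPKM or more. The same transcript was highest in all 12 brains in 2374 genes (48.6%), whereas 2033 genes had 2 and 479 genes had 3 or more different highest transcripts over the 12 brains. For 1289 transcripts of 1009 genes the share was under 5% in 1 brain and over 50% in another. Of these on-off transcripts 862 showed both states among PAE brains, 758 among SAC brains and 435 in both groups, while 104 showed them only between the groups. Single brains held between 317 (SAC26-8) and 434 (ES27-4) of them in the low state. Exact values of 0 were common as well, with 1344 tested transcripts (9.88%) listed at 0 in at least 1 brain.

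On-off genes were found at different rates by level and structure. They made up 34% of 1470 genes under 10 FPKM, 18.5% of 2070 genes between 10 and 30 FPKM and 9.36% of 1346 genes at 30 FPKM or more. They made up 27.1% of genes whose 2 highest transcripts had the same coding sequence and 19.3% of the others, and 29.3% where the ends lay within 50 bases and 16% where they lay further apart. By contrast, the share of genes at an unadjusted p under 0.05 for PAE vs. SAC stayed between 5.01% and 5.77% in all of these classes. Between any pair of brains, Spearman's correlation over the 13602 shares, which come from the same genes, lay between 0.757 and 0.809, and the median Pearson's r was 0.809 within a group and 0.802 between groups.

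**Figure D1:**
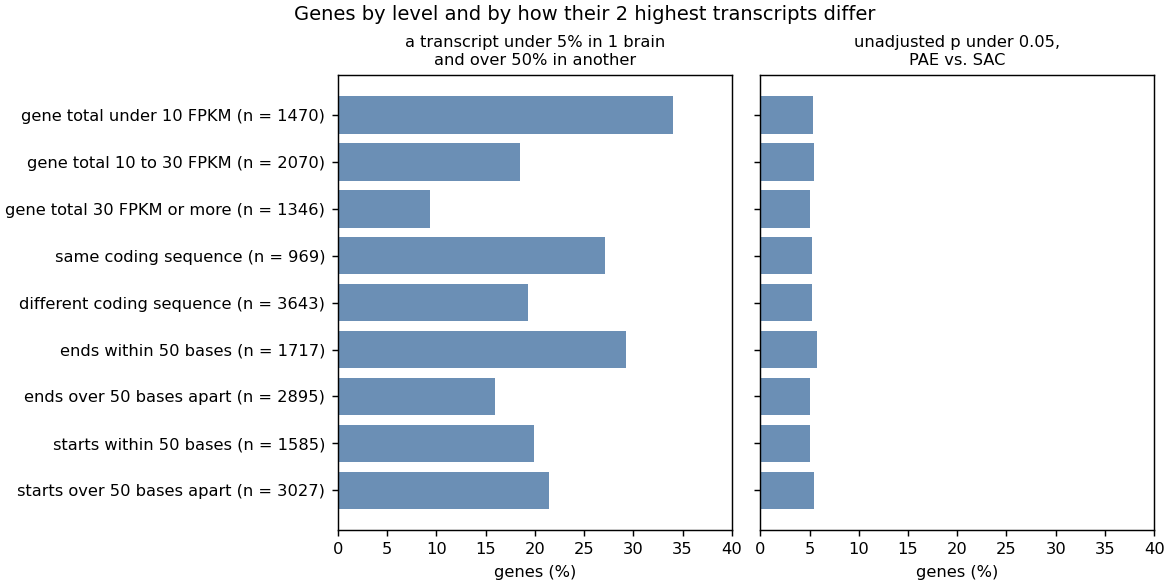
Percent of genes with an on-off transcript (left) and percent of genes at an unadjusted p under 0.05 for PAE vs. SAC (right), by gene total and by how the 2 highest transcripts of a gene differ, with the number of genes n in each class. The left bars range from 9.36% to 34%, and the right bars lie between 5.01% and 5.77%.

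By limma, usage passed in 0 of 4886 genes (0%) at an adjusted p under 0.05, and the smallest adjusted p was 0.0662. At an unadjusted p under 0.05 there were 259 genes (5.30%), close to the 5% that this threshold allows with no difference. The call depended on how brains that share a name prefix were treated: 2 genes passed with the prefix as a random block, and 11 genes and 25 transcripts with 1 mean per prefix. That last fit held only the means of ES19, ES23 and ES27 in PAE and of SAC12 and SAC26 in SAC. Its estimate of spread rests on those few means, and the spread between brains of 1 prefix enters only through them. The consensus correlation of shares within a prefix, which the random block used, was -0.0455. With diffSplice, a limma test of log2(FPKM + 1) that sets a transcript against the other transcripts of its gene, 28 genes passed (0.573%) and 555 had an unadjusted p under 0.05, so the count near 5% holds for the test of shares and not for this one. That test pools the spread over the transcripts of a gene as if they varied independently, which they need not do. With shares on a logit scale (pseudocounts 0.1 and 1) 0 genes passed. Among transcripts 1 passed (0.00735%), and 758 (5.57%) had an unadjusted p under 0.05, of which 364 had a higher and 394 a lower mean share in PAE. Differences in mean share had a median size of 2.58 points and a 90th percentile of 12.5 points, and 1961 transcripts differed by at least 10 and 449 by at least 20 points. In simulated data of the same 4886 genes, with 200 genes changed by each of 3 sizes, the test called 42% of genes changed by 10 points, 65% of those changed by 20 points and 80% of those changed by 30 points. Recovery with fewer changed genes was not simulated. Each simulated transcript was drawn on its own with a normal spread, without the bounds, on-off states or fixed sum of real shares. These rates therefore do not show how often the test finds such changes in the measured shares.

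**Figure D2:**
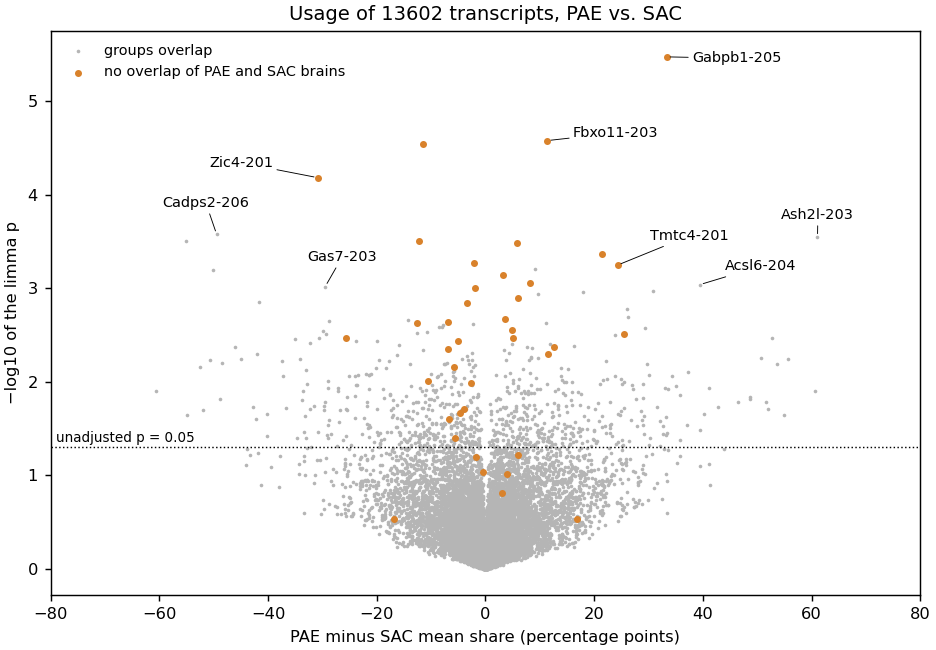
PAE minus SAC mean share in percentage points (x axis) against −log10 of the limma p (y axis) for 13602 transcripts. Orange points mark the 39 transcripts whose 6 PAE shares do not overlap the 6 SAC shares; Gabpb1-205 is highest, and transcripts with differences of over 40 points, such as Ash2l-203 and Cadps2-206, are grey because their groups overlap.

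In what follows the lead transcript of a gene is its tested transcript with the smallest p. PAE and SAC brains did not overlap in the lead transcript of 31 genes (0.634%), and in 39 of all 13602 tested transcripts. With no difference, a transcript would separate the groups with a probability of about 0.0022, so some do so by chance. Taking the transcript with the smallest p of each gene raises the share of genes. A lack of overlap is therefore not by itself evidence of a difference. For genes without overlap the exact permutation p is fixed at 0.0022, the smallest that 924 splits can give. It adds nothing to the lack of overlap and is not repeated for them. Among the 31 genes, 5 differed by more than 20 points (Gabpb1, Zic4, Nrep, Tmtc4 and Gtf2i) and 20 by less than 10 points. The transcript with the highest mean share was not the same in PAE and SAC in 507 genes, 4 of them among the 31. Some p-values below leave out a brain because its value lay apart from its group. Such a p is made smaller by that choice and is not evidence of a difference. Exact permutation p-values of single transcripts below are not adjusted for the number of transcripts. They come from the same shares that picked each lead transcript, so they are not separate evidence of a difference.

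Gabpb1 codes for the beta subunit of GA-binding protein, a transcription factor that activates nuclear genes for mitochondria. Gabpb1-205 (chr2:126628913-126675502, minus strand, GRCm38) made up 45.0%, 36.5%, 40.6%, 38.9%, 42.4% and 44.5% of the gene in PAE brains ES19-4, ES19-8, ES23-4, ES23-7, ES27-1 and ES27-4. In SAC brains SAC12-5, SAC12-6, SAC12-7, SAC26-5, SAC26-7 and SAC26-8 it made up 26.3%, 2.74%, 5.04%, 1.85%, 6.24% and 5.86%. The groups did not overlap, and SAC12-5 lay between the other SAC brains and the PAE brains. The mean was 41.3% ± 3.31 (SD, n = 6) in PAE and 8.01% ± 9.13 (SD, n = 6) in SAC, a difference of 33.3 points (SE 4.04, limma adjusted p = 0.0461). This was the single transcript called. The limma adjusted p lay between 0.084 and 0.239 when any of 9 brains was left out, and it was 0.0394 without ES23-7, 0.0474 without SAC26-8 and 0.000179 without SAC12-5, with the difference between 32.1 and 37.0 points. With 1 mean per name prefix the limma adjusted p was 0.184. Gabpb1-204 took the opposite course, with shares of 0% to 6.47% (median 0%) in PAE and 0.421% to 62.6% (median 27.7%) in SAC. Both code for the same protein of 1146 coding bases, and they differ outside the coding sequence. The gene total was 10.4 FPKM in PAE and 8.79 FPKM in SAC.

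Fbxo11, a substrate receptor of an SCF ubiquitin ligase, had 2 tested transcripts. The share of Fbxo11-203 ran from 11.6% to 19.1% (median 17.4%) in PAE and from 2.44% to 10.5% (median 3.75%) in SAC. The groups did not overlap, though SAC26-8 at 10.5% came within about 1 point of the lowest PAE brain. The difference was 11.4 points (SE 1.71, limma adjusted p = 0.13 over transcripts). Its limma adjusted p was 0.016 without SAC26-8, 0.0394 without ES23-7 and 0.0462 with a minimum of 5 FPKM, which tested fewer transcripts. Leaving out any other single brain gave no call.

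Zic4 is a zinc finger transcription factor of the developing cerebellum. Zic4-201 (chr9:91378642-91389348, plus strand) made up 41.5% to 74.1% (median 47.4%) of the gene in PAE and 75.7% to 90.5% (median 81.9%) in SAC. The groups did not overlap, with ES23-4 at 74.1% far above the other PAE brains. The difference was -30.9 points (SE 5.11, limma adjusted p = 0.224). Zic4-204, which starts 9672 bases away from Zic4-201, made up 30.3% ± 16.6 in PAE and 4.29% ± 1.45 in SAC (SD, n = 6 each). Without ES23-4 the limma adjusted p of Zic4-201 was 0.00324, and it was not called when any other single brain was left out. The 6 cerebellum markers summed to 42.4 to 63.4 FPKM in PAE and 57.1 to 87.8 FPKM in SAC, and their part in the usage of Zic4 was not tested.

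Ash2l codes for a core subunit of the complexes that methylate histone H3 at lysine residues of active promoters. In PAE, Ash2l-203 made up 78.5%, 73.3%, 81.0%, 0.0252%, 73.0% and 71.9% of the gene in the order of brains given above. In SAC its share ran from 0.0646% to 4.17% (median 1.32%). In 5 of 6 PAE brains it was thus the main transcript, while ES23-7 had almost none. The difference was 61.1 points (SE 12, limma adjusted p = 0.499, exact permutation p = 0.015). Without ES23-7 it was 73.7 points, with a limma adjusted p of 8.54e-07, and there was no call when any other single brain was left out. Ash2l-201 made up 18.6% to 27.5% in PAE, 89.0% to 92.3% in 5 SAC brains and 22.2% in SAC26-8, so that neither transcript was the main one in ES23-7 and SAC26-8. There the main one was Ash2l-204, at 70.8% and 77.4%, which has the same coding length as Ash2l-203, 1602 bases. The gene total was 33.5 FPKM in PAE and 24.5 FPKM in SAC (log2 difference 0.44, limma adjusted p = 0.0289).

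Cadps2, a protein that primes dense-core vesicles for release, had the opposite arrangement. Cadps2-206 made up 0% to 2.84% (median 0.164%) in PAE and 1.77% to 70.7% (median 56.8%) in SAC. The groups overlapped through SAC26-7 at 1.77%. The difference was -49.5 points (SE 9.6, limma adjusted p = 0.499, exact permutation p = 0.0065), and without SAC26-7 it was -59.2 points with a limma adjusted p of 0.000121. No call came from leaving out any other single brain. The transcripts of Cadps2 differ by short coding insertions. The 21 coding bases held by Cadps2-205 and Cadps2-201 and lacking in Cadps2-206 were in 88.0% ± 8.44 of the gene's mRNA in PAE and in 41.4% ± 28.9 in SAC (SD, n = 6 each), with SAC26-7 reaching 98.2%. This sum takes in every tested transcript except Cadps2-206, by which Cadps2 was picked. It is thus not a separate result and was not tested. The gene total was 3.47 FPKM in PAE and 5.18 FPKM in SAC (log2 difference -0.499, limma adjusted p = 0.0499).

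Gas7 and Tmtc4 are also among the 10 genes with the smallest p at a difference of at least 10 points. Gas7 codes for a membrane-binding protein of growing neurites. Gas7-203 made up 21.6% to 56.5% (median 24.0%) in PAE and 50.1% to 77.7% (median 55.3%) in SAC, a difference of -29.5 points (SE 6.73, limma adjusted p = 0.715, exact permutation p = 0.011). The groups overlapped through ES23-7 at 56.5%. Tmtc4, an enzyme of the endoplasmic reticulum that adds mannose to cadherins, showed groups that did not overlap. Tmtc4-201 made up 70.3% to 85.4% (median 79.4%) in PAE and 39.6% to 70.1% (median 56.6%) in SAC, a difference of 24.3 points (SE 5.18, limma adjusted p = 0.615). Tmtc4-201 and Tmtc4-209 share 1 coding sequence of 2223 bases.

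Of the remaining genes in this set, Rpgrip1l, a protein of the base of the cilium, did not overlap between groups. Rpgrip1l-201 made up 58.0% to 71.4% in PAE and 75.6% to 83.1% in SAC, with a difference of -12.2 points (SE 2.42, limma adjusted p = 0.499). H3f3a codes for histone H3.3, and because near-identical copies of it exist elsewhere in the genome, its values are uncertain. H3f3a-205 made up 53.8% to 91.4% in PAE and 38.4% to 75.9% in SAC (difference 29.5 points, SE 7.75, limma adjusted p = 0.865, exact permutation p = 0.0065). Outside this set, Rps27a, a fusion of ubiquitin and a ribosomal protein that also has processed copies, was named because its highest transcript differed between the groups. It had Rps27a-202 at 50.6% to 85% in PAE and 44.3% to 52.3% in SAC. The ES19 brains, at 52.5% and 50.6%, were at the level of SAC. The difference of 23.9 points (SE 6.44) had a limma adjusted p of 0.865 and an exact permutation p of 0.0043.

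**Figure D3:**
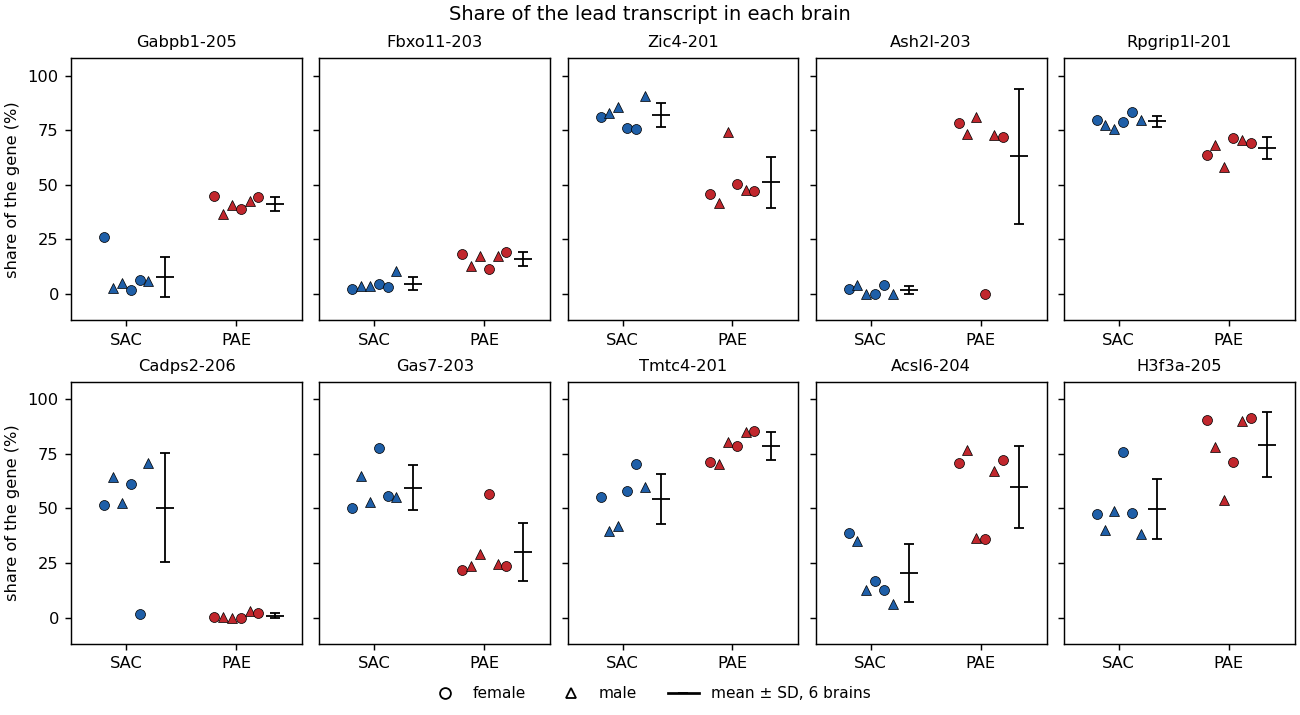
Share of the lead transcript in percent of its gene for each SAC and PAE brain (circles female, triangles male; bars mean ± SD of 6 brains) in the 10 genes with the smallest p at a difference of at least 10 points. Ash2l-203 lies between 71.9% and 81.0% in 5 PAE brains and at 0.0252% in the other one, and Gabpb1-205 has no overlap between groups.

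Acsl6 attaches coenzyme A to long-chain fatty acids and is the member of its family best known for keeping docosahexaenoic acid in the brain. Its 2 tested transcripts differ at the start of the coding sequence. Acsl6-210 starts 404 bases from Acsl6-204, and its coding sequence is longer at the start by 2 stretches of 49 and 26 bases that are not coding in Acsl6-204. They are shown in capitals with neighbouring coding bases in lower case, read from the GENCODE M21 transcripts on the plus strand of GRCm38, and they are the coding difference between the 2 products. The first stretch lies at chr11:54304285-54304333 and the second at chr11:54320152-54320177.
Acsl6-210 first stretch: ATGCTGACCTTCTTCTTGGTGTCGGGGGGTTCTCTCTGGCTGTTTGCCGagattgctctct
Acsl6-210 second stretch: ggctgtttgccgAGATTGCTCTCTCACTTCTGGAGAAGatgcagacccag

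The short-start transcript Acsl6-204 made up 70.6%, 76.7%, 36.3%, 35.9%, 67.0% and 72.3% in the PAE brains and 38.9%, 34.9%, 12.8%, 16.9%, 12.6% and 6.09% in the SAC brains. The groups nearly separated, with both ES23 brains at the level of SAC12-5 and SAC12-6. The difference was 39.4 points (SE 8.94, limma adjusted p = 0.715, exact permutation p = 0.0087). Acsl6-210 made up 17.9% ± 7.12 in PAE and 59.7% ± 24.8 in SAC (SD, n = 6 each), or 2.22 and 9.15 FPKM.

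Gtf2i codes for TFII-I, a transcription factor that lies in the region deleted in Williams syndrome in humans. It was among the 6 genes with the largest differences and no overlap between groups. Gtf2i-216 (chr5:134239513-134295608, minus strand) made up 44.7% to 55.2% (median 53.1%) in PAE and 17.4% to 39.3% (median 33.4%) in SAC. The difference was 21.4 points (SE 4.4, limma adjusted p = 0.582). Gtf2i-216 lacks 2 coding exons of 57 and 63 bases that other transcripts hold. They are shown in capitals, from Gtf2i-222 on the minus strand (chr5:134274539-134274595 and chr5:134272524-134272586), because their inclusion sets the Gtf2i products apart.
Gtf2i 57-base exon: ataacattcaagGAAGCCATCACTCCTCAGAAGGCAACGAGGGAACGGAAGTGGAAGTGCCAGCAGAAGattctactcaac
Gtf2i 63-base exon: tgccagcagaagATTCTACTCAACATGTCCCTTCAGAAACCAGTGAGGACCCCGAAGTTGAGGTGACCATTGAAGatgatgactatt

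The 57-base exon was held by 8 of the 9 tested transcripts, and these summed to 41.0% ± 2.88 in PAE (36.4% to 43.7%) and 64.2% ± 7.78 in SAC (56.6% to 73.9%, SD, n = 6 each). The 63-base exon was held by 4, which summed to 16.5% to 20.1% in PAE and 21.9% to 33.4% in SAC. Neither sum overlapped between groups. The 57-base sum takes in every tested transcript except Gtf2i-216. It thus mirrors the share by which Gtf2i was picked and is not a separate result. Both sums were chosen after the values had been seen and were not tested. Gtf2i-222 itself was listed at 0 in all 6 PAE brains and in SAC12-6 and SAC26-8. The gene total of Gtf2i ran from 35.9 to 37.7 FPKM in PAE, was 37.2 and 38.9 FPKM in those same 2 SAC brains, and ran from 49.5 to 52.7 FPKM in the other 4. Its log2(FPKM + 1) difference was -0.32 (limma adjusted p = 0.0457).

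The other 2 genes of that group were Nrep and Luc7l. Nrep codes for a small protein linked to axon regrowth. Nrep-201 made up 55.6% to 68.4% in PAE and 18.2% to 53.3% in SAC, a difference of 25.4 points (SE 6.83, limma adjusted p = 0.865). Luc7l is a factor of the U1 splicing particle. Luc7l-201 stayed between 0.769% and 1.25% in PAE and between 1.25% and 1.67% in 5 SAC brains, but it was 99.6% in SAC26-7. The difference of -16.8 points (SE 15.2, limma adjusted p = 0.893) rested on that 1 brain.

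Of 36 tested genes in the list of synapse and neurotransmission, 3 (8.33%) had an unadjusted p under 0.05, beside 5.30% of all genes, and none an adjusted one. Of these, Gria4 and Syt1 are described here.

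Gria4 codes for an AMPA-type glutamate receptor subunit. Its mRNA carries 1 of 2 alternative exons of 115 bases, known as flip and flop, which change how fast the channel desensitizes. Gria4-202 carries the exon at chr9:4427030-4427144 (flip), and Gria4-201 and Gria4-204 carry the one at chr9:4432773-4432887 (flop), both on the minus strand. The exons, in capitals, share 84 of 115 bases (73.0%) and are shown because they separate the transcripts compared.
Gria4 flip: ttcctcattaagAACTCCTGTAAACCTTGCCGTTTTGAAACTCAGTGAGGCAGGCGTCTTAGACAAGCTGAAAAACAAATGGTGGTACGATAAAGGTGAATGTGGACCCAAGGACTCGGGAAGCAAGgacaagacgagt
Gria4 flop: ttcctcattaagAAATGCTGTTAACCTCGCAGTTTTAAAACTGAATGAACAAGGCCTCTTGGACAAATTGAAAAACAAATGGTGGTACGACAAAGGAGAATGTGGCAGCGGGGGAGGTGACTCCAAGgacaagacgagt

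The flip transcript Gria4-202 made up 40.7%, 65.6%, 57.1%, 53.8%, 44.3% and 43.4% of Gria4 in the PAE brains and 27.2%, 38.2%, 30.2%, 42.5%, 39.9% and 38.3% in the SAC brains. A single PAE brain, ES19-4, lay within the range of SAC. The difference was 14.8 points (SE 4.82, limma adjusted p = 0.865, exact permutation p = 0.0043). The 2 flop transcripts summed to 29.6% ± 9.02 in PAE and 41.0% ± 5.41 in SAC (SD, n = 6 each), and Gria4-203, a short transcript, held neither exon. The total of Gria4 was lower in PAE, at 23.1 against 29.5 FPKM (log2 difference -0.34, limma adjusted p = 0.0353), while in FPKM Gria4-202 itself was at 11.6 in PAE and 10.6 in SAC.

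Syt1 codes for the calcium sensor of transmitter release. Syt1-202 made up 8.10% to 14.9% in PAE and 5.95% to 10.6% in SAC (difference 4.26 points, SE 1.23, limma adjusted p = 0.865, exact permutation p = 0.0087), and its coding sequence is that of Syt1-201.

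Among 39 genes of the cytoskeleton and axon growth, 2 (5.13%) had an unadjusted p under 0.05, a share near the 5.30% of all genes. Dync1i1 codes for an intermediate chain of cytoplasmic dynein, the motor for transport toward the cell body. Dync1i1-201 lacks a 60-base coding exon (chr6:5784439-5784498, plus strand) that the other 3 tested transcripts hold, shown in capitals.
Dync1i1 60-base exon: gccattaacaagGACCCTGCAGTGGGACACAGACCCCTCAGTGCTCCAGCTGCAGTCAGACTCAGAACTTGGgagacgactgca

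Transcripts with this exon summed to 76.6% to 91.0% (median 86.9%) in PAE and 21.7% to 81.7% (median 41.6%) in SAC. The sum takes in every tested transcript except Dync1i1-201. It thus mirrors the share by which Dync1i1 was picked, is not a separate result and was not tested. The SAC brains were spread widely and the PAE brains were not. Dync1i1-201 made up 14.9% ± 5.70 in PAE and 49.96% ± 24.1 in SAC (SD, n = 6 each), a difference of -35.0 points (SE 9.6, limma adjusted p = 0.865, exact permutation p = 0.011). Dctn1, a subunit of dynactin, was the other, with Dctn1-203 at 11.1% ± 1.78 in PAE and 7.42% ± 1.87 in SAC (limma adjusted p = 0.865). The third of this list by p was Crmp1, which mediates semaphorin signals in axons, with Crmp1-202 at 7.92% ± 0.831 in PAE and 11.6% ± 4.03 in SAC.

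The list of known neuronal splicing targets had 68 tested genes, of which 8 (11.8%) had an unadjusted p under 0.05 and none an adjusted one, beside 5.30% of all genes. The 8 were Mapt, Epb41l2, Aplp2, Snap25, Ncam1, Epb41l3, Ppp3cb and Mef2c. The median size of the lead difference was 3.81 points in the list and 3.94 points over all genes. Mapt codes for tau, which binds microtubules, and its lead transcript was a minor one. Mapt-205, which holds 54 coding bases that Mapt-204 lacks and is marked as incomplete in the annotation, made up 0.419% to 0.574% in PAE and 0.681% to 3.27% in SAC. The groups did not overlap (difference -2.01 points, SE 0.426, limma adjusted p = 0.615). Epb41l2, a protein that links membrane to cytoskeleton, had Epb41l2-205 at 42.1% ± 5.71 in PAE and 30.1% ± 3.53 in SAC (SD, n = 6 each). Epb41l2-205 is 612 bases long and is also marked as incomplete. Aplp2, a relative of the amyloid precursor protein, had Aplp2-201 at 11.3% ± 3.29 in PAE and 6.37% ± 0.99 in SAC.

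Of 59 tested splicing regulators none had an unadjusted gene p under 0.05, and the median size of the lead difference was 2.07 points. The smallest p were those of Hnrnpr, Celf3 and Ptbp2, the last of which is the neuronal form of the polypyrimidine tract binding protein. Hnrnpr-203 was at 1.98% in PAE and 1.18% in SAC, Celf3-201 at 3.63% and 5.26%, and Ptbp2-202 at 8.11% and 5.14%. Hnrnpr-203 and Ptbp2-202 are marked as incomplete in the annotation. Ribosome and translation genes (29 tested, median 1.34 points) and genes of the cell cycle and progenitors (13 tested, median 2.70 points) also had none at an unadjusted p under 0.05. Their smallest p belonged to Eif4g1, Rpl13a and Rps27l and to Ccnd3, Ccnd2 and Pax6, where the largest difference was that of Ccnd3-208, at 36.1% ± 26.1 in PAE and 13.4% ± 7.26 in SAC (SD, n = 6 each, limma adjusted p = 0.879). Rpl13a has processed copies in the genome, so its usage is uncertain.

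In the list of chromatin and transcription regulators 2 of 47 genes (4.26%) had an unadjusted p under 0.05, Tcf12 and Smarcc2, a share below the 5.30% of all genes. Tcf12 is a helix-loop-helix factor of neuronal progenitors. Tcf12-221 was listed at 0 in all 6 SAC brains and in 2 PAE brains, and it made up as much as 87.8% in PAE (median 80.5%, limma adjusted p = 0.865, exact permutation p = 0.061). The gene total was not called (log2 difference 1.28, limma adjusted p = 0.0656). It ran from 22.0 to 26.7 FPKM in ES19-4, ES19-8, ES23-4 and ES23-7. In all other brains, both ES27 brains among them, it ran from 4.63 to 6.75 FPKM. Smarcc2 codes for BAF170, a scaffold of the SWI/SNF chromatin remodelling complex. Smarcc2-203 made up 24.9% to 64.7% (median 30.4%) in PAE and 60.1% to 67.3% (median 62.6%) in SAC (limma adjusted p = 0.865, exact permutation p = 0.039). The third was Tet3, which oxidizes methylated cytosine, with Tet3-202 at 76.8% ± 4.35 in PAE and 82.4% ± 5.38 in SAC.

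**Figure D4:**
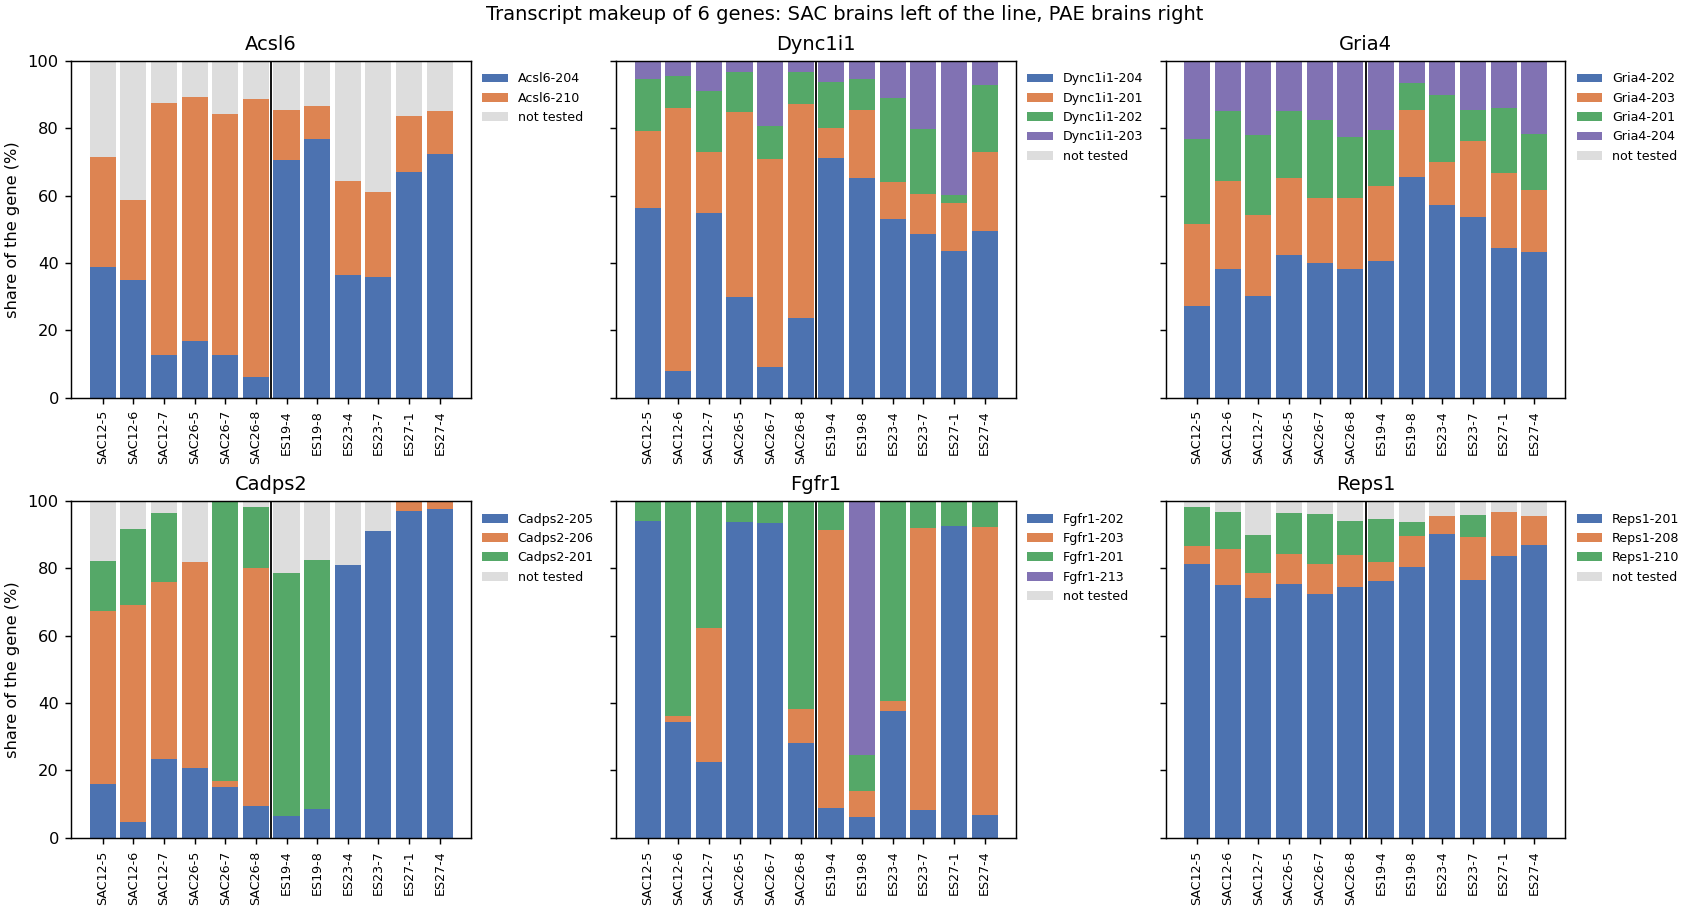
Transcript makeup, in percent of the gene, of 6 genes in each of 6 SAC and 6 PAE brains (stacked bars; grey marks transcripts that were not tested). Acsl6-204 lies between 6.09% and 16.9% in 4 SAC brains and between 67.0% and 76.7% in 4 PAE brains, Gria4-202 lies between 27.2% and 42.5% in SAC and 40.7% and 65.6% in PAE, and Fgfr1 changes from brain to brain.

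The 28 genes that passed with diffSplice included 11 named above and 16 others described or named here, which were chosen after their values had been seen. In Reps1, an adaptor of endocytosis, Reps1-210 lacks an 81-base coding exon (chr10:18107668-18107748, plus strand) that Reps1-201 holds.
Reps1 81-base exon: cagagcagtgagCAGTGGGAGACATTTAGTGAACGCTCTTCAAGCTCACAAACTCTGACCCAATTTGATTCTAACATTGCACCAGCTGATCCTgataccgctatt

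Reps1-210 made up 0% to 12.9% (median 2.14%) in PAE and 10.1% to 14.8% (median 11.5%) in SAC (limma adjusted p = 0.865, exact permutation p = 0.013), and it was listed at 0 in 3 PAE brains. Zero values marked other genes of this group. Agpat3, an acyltransferase of phospholipid synthesis, had Agpat3-204 at 0% to 6.40% (median 0.0144%) in PAE and 1.86% to 75.1% (median 60.7%) in SAC. Arhgap29, a GTPase-activating protein, had Arhgap29-207 listed at 0 in all PAE brains and in 2 SAC brains, and at up to 68.6% in SAC. Arhgap29-207 is marked as incomplete in the annotation. Kansl1, a subunit of a histone acetyltransferase complex, had Kansl1-203 listed at 0 in 5 PAE brains and at 0.0109% to 37.4% in SAC. The limma adjusted p of these shares lay between 0.615 and 0.865, while with 1 mean per name prefix it was 0.0302 for Agpat3-204 and 0.0155 for Kansl1-203. Setd5, a chromatin regulator, had Setd5-202 at 3.55% to 5.14% in PAE and 3.02% to 80.9% in SAC (limma adjusted p = 0.865, and 0.0248 with 1 mean per name prefix). That fit rests on the few prefix means, and the spread between brains of 1 prefix enters only through them. The remaining 11 were Gm3264, Mta1, Nfe2l1, Ptprz1, Ebag9, Camta1, Supt7l, Hyal2, Mrpl24, Camk2b and Gnl3l, and with 1 mean per name prefix Gm3264-202 had a limma adjusted p of 0.0155.

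Within males 1 gene passed (0.0205%), within females 4 genes (0.0819%), and 5 genes passed the interaction of sex and treatment (0.102%). At an unadjusted p under 0.05 there were 223, 252 and 206 of 4886 genes, each fewer than the 259 (5.30%) of the comparison over both sexes. That share was itself close to the 5% that the threshold allows with no difference. When only the brains compared were fitted, 10 genes passed in males and 11 in females. Each sex and treatment holds 3 brains. The gene in males was Macf1, which links microtubules to actin, and its transcript Macf1-209 is marked as incomplete in the annotation. Macf1-209 made up 51.3%, 39.1% and 40.9% in the male PAE brains and 7.93%, 8.39% and 8.21% in the male SAC brains, while all 6 female brains lay between 7.34% and 12.4% (limma, gene adjusted p = 0.0342 in males and 0.103 for the interaction).

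The interaction was called in Zfp219, Gcdh, Phf23, Tex9 and Fgfr1. In Zfp219, a zinc finger transcription factor, Zfp219-212 made up 64.7%, 62.2% and 58.5% in the female SAC brains and under 1% in the other 9 brains. The difference between sexes in the PAE effect was 61.5 points (SE 2.64, limma adjusted p = 1.17e-05). In Tex9, a gene first described in testis, Tex9-209 made up 3.86% to 5.31% in female PAE brains and 43.6% to 55.7% in the other 9 (45.3 points, SE 5.79, limma adjusted p = 0.0351).

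Gcdh codes for an enzyme of lysine breakdown. Gcdh-201 had means of 40.5% in male PAE, 74.5% in male SAC, 73.1% in female PAE and 45.2% in female SAC, so that PAE and SAC differed in opposite directions in the 2 sexes (male minus female difference -62 points, SE 7.15, limma adjusted p = 0.0294). Phf23, a PHD finger protein, showed the same kind of crossing. Phf23-205 had means of 73.0% in male PAE, 5.41% in male SAC, 6.48% in female PAE and 78.7% in female SAC (140 points, SE 14.6, limma adjusted p = 0.0221).

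Fgfr1 is a receptor for fibroblast growth factors, and its transcripts with and without a 267-base exon give receptors with 3 or 2 immunoglobulin-like loops. This exon (chr8:25555508-25555774, plus strand) is held by Fgfr1-201 and Fgfr1-202 and lacking in Fgfr1-203, and is shown in capitals because it separates the products.
Fgfr1 267-base exon: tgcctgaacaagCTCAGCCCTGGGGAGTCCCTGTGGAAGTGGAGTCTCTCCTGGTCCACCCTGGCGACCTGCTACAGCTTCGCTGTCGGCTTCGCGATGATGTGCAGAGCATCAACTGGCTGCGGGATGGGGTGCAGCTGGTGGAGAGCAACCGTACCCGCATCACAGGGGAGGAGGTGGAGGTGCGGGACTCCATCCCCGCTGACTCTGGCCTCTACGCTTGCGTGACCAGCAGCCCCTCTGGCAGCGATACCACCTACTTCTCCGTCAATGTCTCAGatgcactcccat

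Fgfr1-203 made up 82.6%, 83.7% and 85.8% in the female PAE brains and was listed at 0 in the 3 female SAC brains. In males it made up 7.78%, 3.16% and 0% in PAE and 1.94%, 39.98% and 10.1% in SAC. In the share of Fgfr1-203 the female PAE brains thus stood apart from the other 9. Fgfr1-213 also lacks the exon, and it made up 75.4% in the male PAE brain ES19-8 and was listed at 0 in the other 11, so by the exon that male brain lay with the female PAE brains. The sexes differed in the PAE effect by -97.7 points, as male minus female (SE 11.5, limma adjusted p = 0.0294). Transcripts with the exon summed to 14.2% to 100% in PAE (median 17.1%) and 60.0% to 100% in SAC (median 99.0%). Tpd52l1, the fourth gene called in females, missed the interaction (gene adjusted p = 0.0875, limma).

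**Figure D5:**
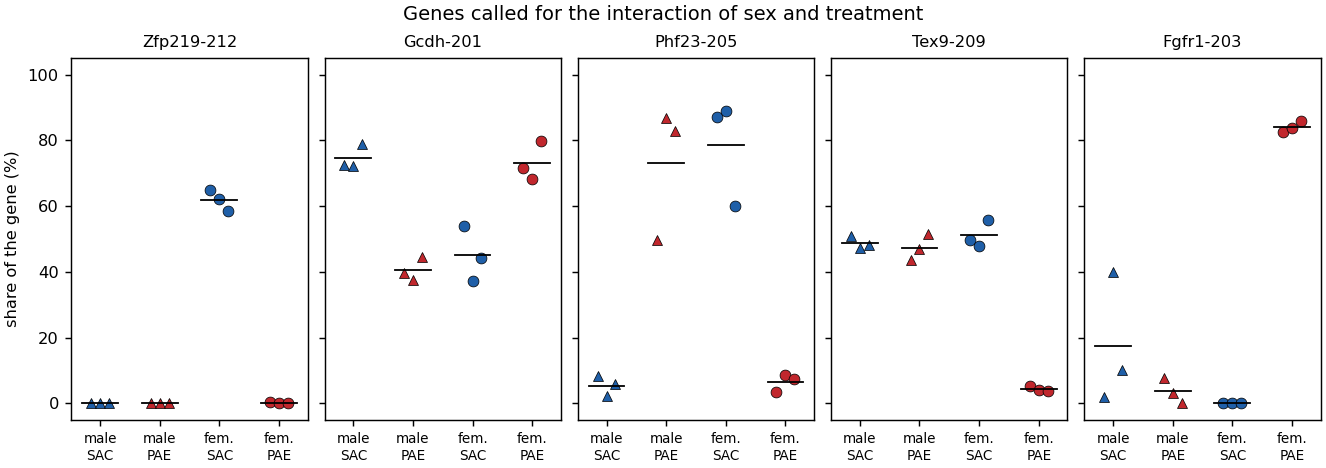
Share in percent of the transcript with the smallest interaction p in each of the 5 genes called for the interaction, for 3 male SAC, 3 male PAE, 3 female SAC and 3 female PAE brains (points) with their means (lines). Fgfr1-203 lies between 82.6% and 85.8% in female PAE brains, and Gcdh-201 and Phf23-205 cross between the sexes.

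The mean share of the longest tested transcript over 4612 genes was 49.5% ± 0.424 in PAE and 49.3% ± 0.158 in SAC (SD, n = 6 each, exact permutation p = 0.34). Over the 662 genes with every tested transcript at 5 FPKM or more it was higher in PAE by 0.92 points (exact permutation p = 0.022).

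Gene totals behaved differently from usage. Of 12463 genes, 549 (4.41%) passed for the sum of their transcripts, 241 higher (1.93%) and 308 lower (2.47%) in PAE, and of the 4894 genes studied here 238 (4.86%) passed, 109 higher and 129 lower. Among splicing regulators 8 of 76 totals rose and none fell. They included Srsf1, at 33.8 FPKM in PAE and 28.1 in SAC (log2 difference 0.26, limma adjusted p = 0.0463), Hnrnpa1, at 411 and 361 FPKM (0.19, limma adjusted p = 0.0386), and Hnrnpc, at 136 and 112 FPKM (0.27, limma adjusted p = 0.041). Among synapse genes none of 55 rose and 12 fell, among them Rims1, at 20.2 and 26.0 FPKM (-0.35, limma adjusted p = 0.0268). The rise was not particular to splicing regulators. Of chromatin and transcription regulators 6 of 57 rose and none fell, and of ribosome and translation genes 5 of 46 rose and none fell. In the list of the cell cycle and progenitors 4 of 41 rose and 1 fell. For neuronal splicing targets 1 of 74 rose and 5 fell, and for the cytoskeleton and axon growth 3 of 57 rose and 3 fell. With the Hox level as a covariate 0 of the 4894 genes passed by limma, where 576 had an unadjusted p under 0.05, and leaving out 1 brain at a time gave between 1 and 613 genes, the highest without ES19-4. Since the Hox level was low in 5 of 6 PAE brains and high in 5 of 6 SAC brains, Hox level and treatment cannot be told apart here.

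Markers of regions differed between the groups. The 15 Hox genes, which mark hindbrain and spinal cord, had a sum of 0.0475 to 0.178 FPKM in PAE except in ES19-4, where it was 64.8 FPKM. In SAC the sum was 25.7 to 72.2 FPKM except in SAC12-6, where it was 0.464 FPKM. The 5 forebrain neuron markers summed to 344 to 483 FPKM in PAE and 206 to 358 FPKM in SAC, and the 6 astrocyte markers to 213 to 403 FPKM and 370 to 469 FPKM. The cerebellum markers were given with Zic4, and the 5 of the oligodendrocyte lineage summed to 34.6 to 54.5 FPKM and 50.4 to 64.6 FPKM. No marker of these lists was at 0 in all 12 brains, and the 5 general neuron markers summed to 950 to 1052 FPKM in all 12. Region and treatment cannot be told apart here, and in whole brains fewer cells of a type cannot be told apart from less RNA per cell. With ES19-4 and SAC12-6 left out, 0 genes and 0 transcripts passed for usage by limma, 265 genes had an unadjusted p under 0.05, and Gabpb1-205 kept a difference of 31.5 points (limma adjusted p = 0.473).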

How the data were processed

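Poly-A RNA from 12 whole brains was sequenced as paired ends from stranded Kapa libraries. The submitters' notes name FastQC, cutadapt, HISAT2 and StringTie, and the study's methods add Ballgown, without versions. Values in the deposited table are FPKM, which the authors estimated per transcript, so depth and counts are unknown and an exact 0 may be a failed estimate. The table holds protein-coding transcripts, each reaching a mean of 0.5 FPKM in 1 or more combinations of sex and treatment. Transcripts were matched by identifier and version to GENCODE M21 (GRCm38).

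A share was a transcript's FPKM as a percent of the sum over its gene in the same brain. Shares of 13602 transcripts were compared with limma 3.58.1 in R 4.3.3 (variance trend, Benjamini-Hochberg adjustment), and gene p-values came from the Simes method, adjusted over 4886 genes. Gene totals were tested as log2(FPKM + 1) with limma. Exact two-sided permutation tests used all 924 splits of 6 and 6 brains. Figures were drawn with Python 3.11.15 and matplotlib 3.10.9. The test was tested on data simulated with a normal spread, where 16 of 390 calls were false, which does not give the error rate for measured shares.

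The members and gene lists were chosen with earlier results of these data known. Genes were named by rule: 10 with the smallest p at a difference of at least 10 points, the 6 largest differences without overlap, up to 6 whose highest transcript differed between groups, up to 3 of each list and 3 with the smallest interaction p. All other named genes were chosen after their values were seen. Alternatives covered the scale of the share, level minimum, denominator, variance model, covariates, name prefix, diffSplice and leaving out each brain. A variance trend on gene total and leaving out ES19-4 and SAC12-6 together were added after seeing the data. A result on 1 gene is not reported here.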

Additional observations from a re-analysis of the deposited data

Results flagged for a closer look

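In 6 brains of 1 group, a value was singled out when its gap to the nearest brain exceeded Dixon's critical share of the group's range, which chance gives in about 5% of groups. Among SAC brains these were Gabpb1-205 in SAC12-5 at 26.3%, Fbxo11-203 and Eif4g1-216 in SAC26-8 at 10.5% and 3.73%, Rps27l-203 in SAC12-5 at 5.69%, H3f3a-205 in SAC26-5 at 75.9%, and 3 values in SAC26-7: Cadps2-206 at 1.77%, Luc7l-201 at 99.6% and Phf23-202 at 27.9%. Among PAE brains they were Zic4-201 in ES23-4 at 74.1%, and 3 values in ES23-7: Ash2l-203 at 0.0252%, Gas7-203 at 56.5% and Phf23-202 at 51.7%. ES23-7 had the lowest library quality weight from limma, 0.692, where the other brains had 0.902 to 1.2. This weight is estimated from how far the same shares lie from their group. It is therefore not a separate measure of library quality.

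The PAE effect on usage differed between sexes by the interaction test in 5 transcripts of 5 genes. As male minus female differences these were -62 points for Gcdh-201, 140 points for Phf23-205, -97.7 points for Fgfr1-203, 61.5 points for Zfp219-212 and 45.3 points for Tex9-209. Each rests on 3 brains per sex and treatment.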

How the results depend on the processing

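The count of called transcripts, 1, became 0 on the logit scales (pseudocounts 0.1 and 1), on the arcsine scale, without moderation, with quality weights, with sex or Hox level as a covariate, and without ES19-4 and SAC12-6 (chosen after seeing the data). It became 2 with minimums of 0.5 and 5 FPKM, 3 with no minimum and 25 with name prefix means. Leaving out 1 brain gave 0 to 5. The count of called genes, 0, became 1 with minimums of 0.5 and 5 FPKM, 2 with no minimum, 2 with the prefix as a random block, 11 with prefix means and 28 with diffSplice, while leaving out 1 brain gave 0 to 3, with 3 without ES23-7 and without SAC26-8. In males the count of 1 became 2 (logit, 0.1), 3 (0.5 FPKM) and 10 (only the brains compared), in females the count of 4 became 7 (0.5 FPKM), 1 (5 FPKM) and 11 (only the brains compared), and for the interaction 5 became 2 (5 FPKM). The longest transcript's difference became 0.92 points at 5 FPKM, and it lay between 0.0888 and 0.277 points with 1 brain left out. Member gene totals called, 238, became 0 with Hox level as a covariate and 1 to 613 with 1 brain left out. The Gcdh-201 difference of -3.01 points reversed to 1.80 with Hox level as a covariate and lay between -7.58 and 0.862 points with 1 brain left out (0.451 without ES19-8, 0.862 without ES23-4 and 0.787 without SAC26-8). Causes were not tested. Of the alternative values for named transcripts 11 gained a call and 18 lost it, all 18 for Gabpb1-205, the single call there was to lose (adjusted p = 0.184 with prefix means). The other transcripts had no call to lose, so the 1559 values that stayed on their side of the threshold do not show stability. No paired analysis was possible because the replicate numbers of the groups do not pair brains. Depth is unknown, so the counting error of a share cannot be given.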
